A study of Mus musculus with 9 samples.

Results

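Vitamin A (retinol) acts in cells through its oxidised form, retinoic acid. This report describes 9 mouse genes of that pathway in 3T3-L1 preadipocytes, a mouse fibroblast line that can be turned into fat cells. They are Retsat, which saturates retinol; the carrier proteins Rbp4, Crabp1 and Crabp2; the enzymes Rdh10 and Dhrs3, which interconvert retinol and retinal; and the retinoic acid receptors Rara, Rarb and Rarg. The group was chosen by the intensities of Retsat, which moved in opposite directions with the compounds X-1 and X-3, so Retsat is described without a test. Every probe named for these genes, or for a synonym of them, was taken, which gave 15 probes of 41174 on the array.

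Gene expression was measured on 9 one-colour Agilent arrays, 3 for each of 3 groups. All groups were 3T3-L1 preadipocytes cultured with 10% fetal bovine serum, after which serum was withdrawn for 48 h. The groups were untreated control cells, cells given X-1 and cells given X-3, both at 70 µM for 24 h. X-1 and X-3 are described in the series title as derivatives of mangiferin, and their structures are not given in the sources used here. The series counts the 9 arrays as separate experiments, and the labels call the controls untreated. The cells were preadipocytes, not mature fat cells.

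Retinol is carried in blood by Rbp4 and inside cells by small binding proteins. Retinol dehydrogenases such as Rdh10 oxidise it to retinal, Dhrs3 reduces retinal back to retinol, and aldehyde dehydrogenases turn retinal into retinoic acid. Retinoic acid binds the receptors Rara, Rarb and Rarg, which pair with RXR receptors on DNA, and Cyp26 enzymes break it down. In the fat lineage, retinoic acid given early blocks differentiation, whereas Retsat is a known target of PPAR gamma and is needed for adipocyte differentiation in cultured cells.

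Intensities are given on a log2 scale after subtraction of each array's 75th percentile over gene spots, so that 0 is that percentile and 1 unit is a factor of 2. Those percentiles lay between 9.63 and 10.92 in log2 intensity, and 57.9% to 67.1% of the 43379 gene spots of an array were well above background. Each slide held 1 array of each group, and its number is the replicate number. Slide 1 was scanned separately from slides 2 and 3 and carried no spike-in RNA. Group and position on the slide cannot be told apart. In a principal component analysis X-3 replicate 1 stood apart on the second component, at 72.4 against −20.7 and −17.9 for X-3 replicates 2 and 3. On the array the 8 fibroblast and preadipocyte markers were all above background in the control arrays, whereas of 7 adipocyte markers only Fabp4 was, and of the hepatocyte and stellate cell markers with a probe 0 of 3 and 0 of 3 were. Of 5 macrophage markers Cd68, Csf1r and Lyz2 were above background in controls and Adgre1 and Ptprc were not. Of 4 endothelial markers only Tek was, and of 4 epithelial markers only Krt8 was on all 3 control arrays. Some of these moved with the treatments: Krt8 rose by 1.90 with X-1 and 2.39 with X-3, Csf1r by 1.11 and 1.26, and Cd68 by 0.74 and 1.12. Lyz2 fell by 1.57 and fell by 1.52, Pdgfra fell by 1.35 and fell by 1.33, and Pdgfrb fell by 1.42 and fell by 1.20. These are values at each gene's brightest probe, and the other Pdgfra probe gave −0.12 with X-1 and 0.44 with X-3. The summed log2 level of the epithelial list ran from −3.66 to −3.40 in controls, −1.93 to −1.59 with X-1 and −1.31 to −1.06 with X-3, that of the macrophage list from 0.70 to 0.85, 0.005 to 0.092 and 0.098 to 0.30, and that of the fibroblast list from 10.41 to 10.63, 10.40 to 10.66 and 10.44 to 10.55. The part of these markers in the results was not tested. In RNA from whole cultures, fewer cells of a type and less RNA per cell cannot be told apart.

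For the 4 genes with enough signal other than Retsat, both compounds gave higher levels than the controls at each gene's brightest probe. Whether position on the slide had a part in this was not tested. At its second probe Rdh10 was −0.23 with X-1 and −0.61 with X-3. Rarg was −0.20 and 0.23 at probe A_52_P26409, and −0.06 and 0.44 at A_52_P380418. The second Dhrs3 probe and Rarg probe A_51_P372858 rose with both compounds. A probe was used when, in 1 group or more, each of its 3 arrays read it well above background. The 5 genes with such a probe were Retsat, Rdh10, Dhrs3, Rara and Rarg. Rbp4, Crabp1, Crabp2 and Rarb had none. Of 15 probes, 10 passed the filter, and 9 of those were above background on all 9 arrays. In limma's fit across all 16735 genes, 4 of 4 tested members rose with X-1 and 4 of 4 rose with X-3 (adjusted p below the threshold of 0.05). Against this, 56.5% of all genes were called with X-1 (28.2% higher and 28.3% lower), and 55.6% with X-3 (29.3% and 26.3%). Between the compounds, X-3 against X-1, 0 of 4 members were called, where 10.8% of all genes were called (7.18% higher and 3.66% lower). The brightest probes of these 4 were above background on all 9 arrays. As 4 of the 9 genes had no probe that passed the filter, these 4 do not stand for all 9 genes.

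The size and the calls of these changes, and for Dhrs3 also the direction, depend on how the arrays are scaled. With slides 2 and 3 scaled to equal signal of their spike-in RNA, the median of all genes moved from 0.06 and 0.06 (X-1 and X-3 against control) to −0.91 and −0.72. On that scale 1 of 4 members stayed called higher with X-1 (Rdh10) and 2 of 4 with X-3 (Rara and Rarg). All differences that follow are on the percentile scale unless another scale is named.

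The 60-base probes of Retsat and Rara and 1 of Rarg are given because they show what each spot read; positions are as the scanner files give them, on build mm9. The probes of Rdh10 and Dhrs3 are not printed. The 60 bases of the Rarg probe are split over chr15:102066621-102069261 on the minus strand.
Retsat probe A_51_P319070 (chr6:72556656-72556715, plus strand): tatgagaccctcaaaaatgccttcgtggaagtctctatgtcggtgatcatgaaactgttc
Rara probe A_51_P389724 (chr11:98831859-98831918, plus strand): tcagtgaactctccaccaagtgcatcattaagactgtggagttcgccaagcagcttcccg
Rarg probe A_51_P372858: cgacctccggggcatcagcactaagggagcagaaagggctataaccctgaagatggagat

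Retsat converts retinol to a dihydro form. Its probe read 1.52, 1.90 and 1.83 in the control arrays of slides 1, 2 and 3. With X-1 it read 0.98, 1.07 and 0.86, and with X-3 it read 2.35, 2.17 and 2.38. The X-1 arrays were all below the controls, the X-3 arrays all above them, and no groups overlapped. In either direction, groups did not overlap for 68.5% of all genes with X-1 against control and 62.2% with X-3. Between the compounds it was 31.2%. The means were 1.75 ± 0.20 in controls, 0.97 ± 0.10 with X-1 and 2.30 ± 0.11 with X-3 (SD, n = 3). With X-1 the level was lower by 0.78 ± 0.14 (SE) than in controls, a 1.71-fold difference, and by 0.54, 0.83 and 0.97 within slides 1, 2 and 3. With X-3 it was higher by 0.55 ± 0.14, 1.46-fold, with slide values of 0.83, 0.27 and 0.55. X-3 exceeded X-1 by 1.33 ± 0.14, 2.51-fold, with slide values of 1.36, 1.10 and 1.51.

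The Retsat values were the ones that chose the group, and they depend on the scale. Relative to the all-gene median on slides 2 and 3, Retsat was lower with X-1 by 0.96 and higher with X-3 by 0.35. Subtracting that median cancels the spike-in scaling, so these 2 values are the same with and without it and cannot test it. Without that reference the spike-in values were −1.87 for X-1 and −0.37 for X-3, so that the X-3 difference from control changed sign. With median scaling they were −0.98 and 0.34. The difference between the compounds was 1.50 with spike-in scaling.

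**Figure D1:**
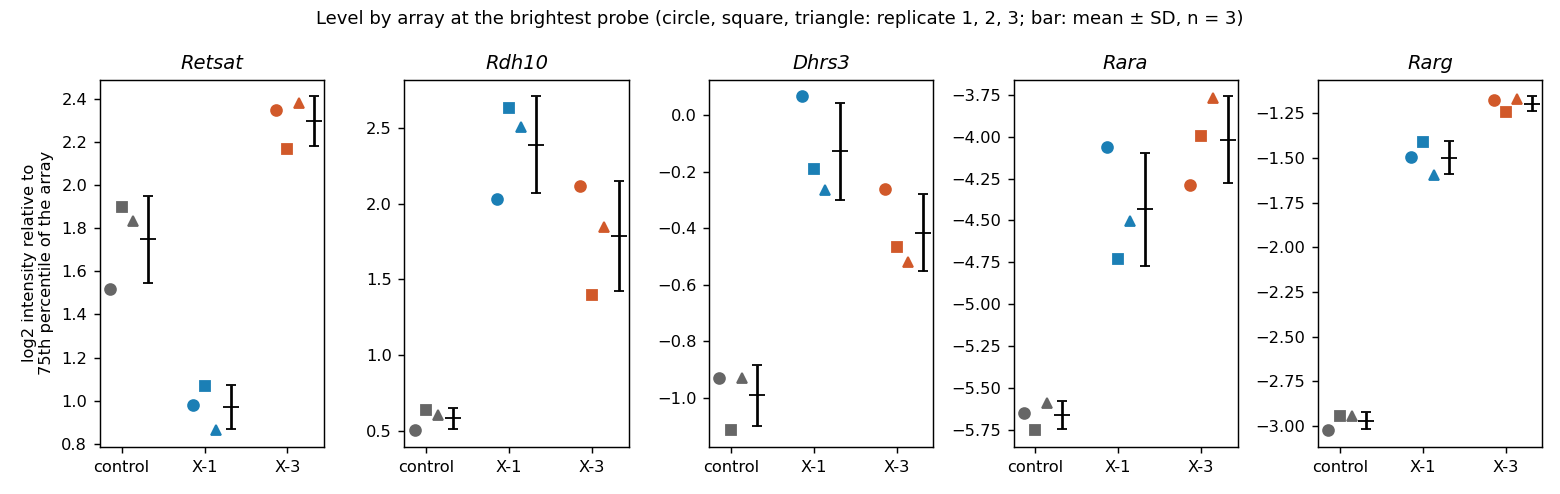
Relative log2 intensity (0 is the array's 75th percentile) in control, X-1 and X-3 arrays. Shown is the brightest probe of each of Retsat, Rdh10, Dhrs3, Rara and Rarg. Points are single arrays, and the bar and whisker are the mean and SD of 3 arrays; the vertical scale differs between panels. The Retsat panel shows X-1 below and X-3 above the controls.

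Rdh10 oxidises retinol to retinal, the step that begins retinoic acid synthesis. Its brighter probe, at chr1:16121478-16121537 on mm9, read 0.50, 0.64 and 0.61 in controls, 2.03, 2.64 and 2.51 with X-1, and 2.12, 1.40 and 1.85 with X-3. Every treated array was above every control array, and groups likewise did not overlap, in either direction, for 68.5% of all genes with X-1 and 62.2% with X-3. Rdh10 rose by 1.81 ± 0.21 with X-1 (3.51-fold, limma adjusted p = 9.06e-05) and by 1.20 ± 0.21 with X-3 (2.30-fold, adjusted p = 0.00121). Within slides 1, 2 and 3 the rise was 1.53, 2.00 and 1.90 with X-1 and 1.61, 0.76 and 1.24 with X-3. With spike-in scaling the X-3 difference was 0.22 and was not called.

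Rdh10 was 0.61 lower with X-3 than with X-1, with a 95% interval of −1.09 to −0.12 and an adjusted p of 0.104, so this difference was not called. Without X-3 replicate 1, the array that stood apart, it was −0.77 and was called (adjusted p = 0.0338), and with slides 2 and 3 alone −0.95 (adjusted p = 0.00905).

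A second Rdh10 probe, A_52_P59318, read differently. It lies 584 bases downstream, at chr1:16122062-16122121, and read 0.17, 0.14 and 0.24 in controls, 0.02, −0.27 and 0.10 with X-1, and −0.50, −0.54 and −0.23 with X-3. It was 0.23 ± 0.14 lower with X-1 and not called (adjusted p = 0.199 over all probes). It fell by 0.61 with X-3 (adjusted p = 0.00654). Of all probes, 54.9% were called with X-1, 54.2% with X-3 and 9.36% between the compounds. The log2 ratio of the first to the second probe was 0.40 ± 0.08 in controls, 2.44 ± 0.45 with X-1 and 2.21 ± 0.36 with X-3 (SD, n = 3). The ratio rose in all 3 arrays of each compound, by 2.04 and 1.81 (exact permutation p = 0.1 for each, the smallest that 3 against 3 arrays allow). It differed between the compounds by −0.23, with an exact permutation p of 0.6. A ratio within an array does not depend on the scaling between arrays, and shows an unequal change of both probes. With spike-in scaling the second probe was −1.25 with X-1 and −1.36 with X-3. When the level of Rdh10 was taken as the mean of both probes, the X-3 difference from control was 0.30 and was not called (adjusted p = 0.0939).

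Dhrs3 reduces retinal to retinol and opposes Rdh10. Its brighter probe, at chr4:144517350-144517409, read −0.93, −1.12 and −0.93 in controls, 0.07, −0.19 and −0.26 with X-1, and −0.26, −0.47 and −0.52 with X-3. Dhrs3 rose by 0.86 ± 0.13 with X-1 (1.82-fold, adjusted p = 0.000537) and by 0.58 ± 0.13 with X-3 (1.49-fold, adjusted p = 0.0058), and each treated array exceeded each control array. Spike-in scaling turned both values negative, to −0.18 and −0.25, with neither called. With median scaling the X-3 difference was 0.36 and was not called (adjusted p = 0.164). The second Dhrs3 probe, with a start 133 bases away, gave 1.06 (adjusted p = 3.51e-05) and 0.67 (adjusted p = 0.000595), with readings of −2.98, −2.93 and −2.84 in controls, −1.83, −1.88 and −1.85 with X-1, and −2.23, −2.25 and −2.25 with X-3. Between the compounds the brighter probe differed by −0.29 (interval −0.59 to 0.02, adjusted p = 0.204), and the second by −0.39 with an adjusted p of 0.05. That last value sat at the threshold and was not called under 15 alternatives, for example without X-1 replicate 3 (adjusted p = 0.148).

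**Figure D2:**
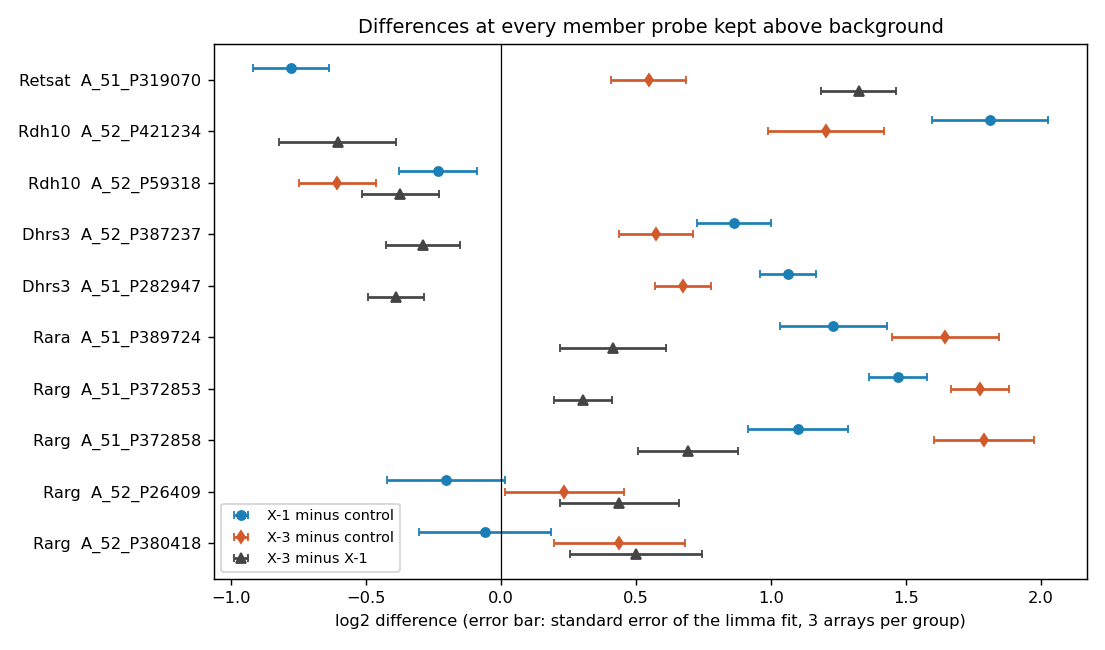
Log2 differences of the members' kept probes for X-1 against control, X-3 against control and X-3 against X-1; bars are standard errors of the fit with 3 arrays per group. Rdh10, Dhrs3, Rara and Rarg lie above 0 at their brightest probe in both comparisons with control.

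Rara encodes retinoic acid receptor alpha, which is dim on these arrays. The probe read −5.65, −5.75 and −5.59 in controls, −4.06, −4.73 and −4.51 with X-1, and −4.29, −4.00 and −3.77 with X-3, with all treated arrays above the controls. Rara rose by 1.23 ± 0.19 with X-1 (2.35-fold, adjusted p = 0.000577) and by 1.65 ± 0.19 with X-3 (3.13-fold, adjusted p = 0.000113). With spike-in scaling the X-1 value was 0.08 and was not called. X-3 exceeded X-1 by 0.42 (interval −0.03 to 0.86, adjusted p = 0.204), with slide values of −0.22, 0.73 and 0.74. With slides 2 and 3 alone it was 0.74 (adjusted p = 0.0109).

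Rarg encodes retinoic acid receptor gamma. At its brightest probe (chr15:102066309-102066368, minus strand) it read −3.02, −2.94 and −2.94 in controls, −1.49, −1.41 and −1.59 with X-1, and −1.18, −1.24 and −1.17 with X-3. Rarg rose by 1.47 ± 0.10 with X-1 (2.77-fold, adjusted p = 4.6e-06) and by 1.77 ± 0.10 with X-3 (3.42-fold, adjusted p = 2.33e-06). With spike-in scaling the X-1 value was 0.47 and was not called. The X-3 arrays all lay above the X-1 arrays, by a mean of 0.30 (interval 0.07 to 0.54), but the adjusted p was 0.0996. Groups that do not overlap in this way were found for 31.2% of all genes. The Rarg probe printed above read −4.73, −4.60 and −4.34 in controls, −3.33, −3.63 and −3.42 with X-1, and −3.13, −2.63 and −2.55 with X-3. It rose by 1.10 with X-1 (adjusted p = 0.000977) and by 1.79 with X-3 (adjusted p = 6.16e-05). With spike-in scaling the X-1 value of this probe was −0.02. X-3 exceeded X-1 by 0.69 (adjusted p = 0.0522), and by 0.87 without X-3 replicate 1 (adjusted p = 0.0107).

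A pair of Rarg probes named for another transcript, M32070, lies 6102 and 6196 bases from the brightest probe and was not called in any comparison on the 9 arrays. The first, A_52_P26409, read −4.17, −4.05 and −3.96 in controls, −3.99, −4.26 and −4.54 with X-1, and −4.21, −3.41 and −3.86 with X-3. The differences from control were −0.20 (adjusted p = 0.459) and 0.23 (adjusted p = 0.394). A_52_P380418 gave −0.06 (adjusted p = 0.851) and 0.44 (adjusted p = 0.16), and 1 X-1 array was not above background there. The log2 ratio of the brightest probe to A_52_P26409 was 1.09 ± 0.06 in controls, 2.76 ± 0.24 with X-1 and 2.63 ± 0.44 with X-3. It rose by 1.67 and 1.54, and the ratio to A_52_P380418 by 1.53 and 1.33, with an exact permutation p of 0.1 in each case, the smallest possible. With spike-in scaling both M32070 probes were lower with X-1, at −1.37 (A_52_P26409) and −1.22. With slides 2 and 3 alone both were called between the compounds, X-3 exceeding X-1 by 0.77 at each (adjusted p = 0.0219 and 0.0254), and A_52_P380418 was called higher with X-3 than in controls, by 0.52 (adjusted p = 0.0493). Between the compounds these ratios differed by −0.14 and −0.20 (exact permutation p = 0.7 for both).

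**Figure D3:**
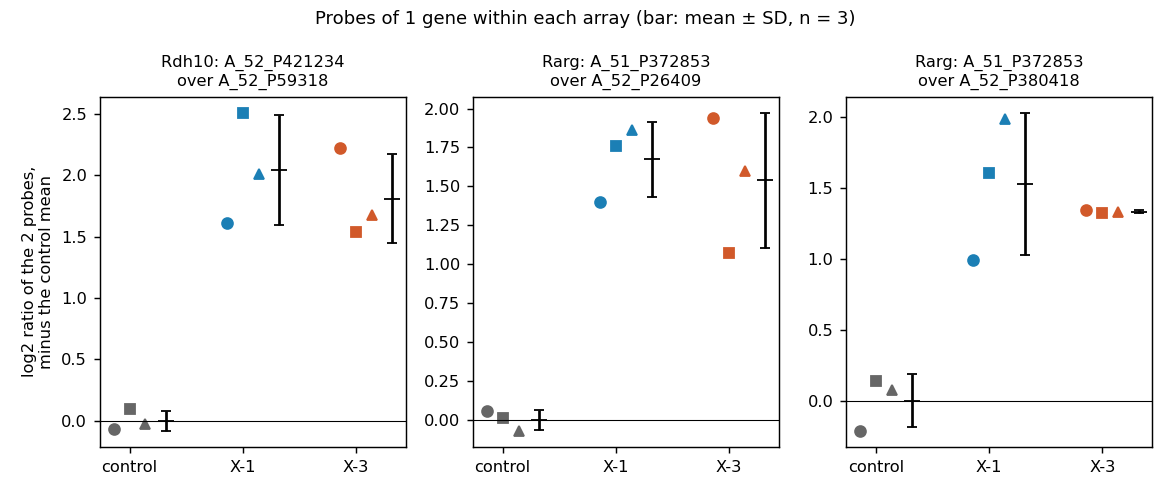
Log2 ratio of probes of one gene, as the difference from the control mean, in each array of control, X-1 and X-3. The ratio is above the control arrays in all treated arrays for the Rdh10 pair and both Rarg pairs.

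The carrier genes and Rarb gave no usable level. Rbp4 and Crabp1 were not well above background on any of the 9 arrays, and the same held for the Rarb probe A_51_P202440, which has 10 spots. Crabp2, which carries retinoic acid to its receptors, was well above background on 2 of 3 X-3 arrays and on 0 control and 0 X-1 arrays. It read −8.10, −8.50 and −7.92 in controls, −6.43, −7.07 and −7.53 with X-1, and −6.61, −5.85 and −5.83 with X-3, and the arrays not well above background give only a bound, so no fold is given. The other Rarb probe, A_52_P495759, was above background on 1 X-3 array, replicate 2, at −6.15.

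The wider retinoid pathway was described from lists written from general knowledge, and genes passing the same filter were counted. Counts from spike-in and median scaling follow in brackets, in the order higher and lower with X-1, then higher and lower with X-3. Counts are of all tested genes of a list, and the shares of all genes given above belong to the percentile scale only. Over all 16735 genes, spike-in scaling called 1281 higher and 9710 lower with X-1, and 1547 and 8147 with X-3. Median scaling called 3127 and 5114 with X-1, and 3081 and 4874 with X-3. Among uptake, carrier and storage genes (8 of 17 listed tested), 4 rose and 2 fell with X-1, and 5 rose and 0 fell with X-3 (spike-in 1 and 3, 1 and 3, median scaling 3 and 2, 3 and 1). Rbp7, a fat-tissue retinol carrier, rose by 1.75 with X-1 (3.35-fold, adjusted p = 2.22e-05) and by 2.11 with X-3 (4.30-fold, adjusted p = 9.12e-06). Scarb1, a lipoprotein receptor that takes up carotenoids, rose by 0.94 and 0.98. Dgat1, which esterifies retinol and other lipids, fell by 0.82 with X-1 and was −0.41 with X-3 (adjusted p = 0.0554). Stra6, the retinol importer, was 0.40 with X-1 (adjusted p = 0.219) and was not called, and with spike-in scaling −0.86. The list median was 0.51 with X-1 and 0.55 with X-3, against 0.06 over all genes.

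Among oxidation and reduction genes, 15 of 21 were tested. With X-1, 3 rose and 6 fell, and with X-3, 3 rose and 8 fell (spike-in 0 and 12, 0 and 11, median scaling 0 and 6, 2 and 8), with medians of −0.21 and −0.46. Adh1, an alcohol dehydrogenase that acts on retinol, fell by 2.75 with X-1 (6.71-fold, adjusted p = 1.08e-06) and fell by 1.93 with X-3 (3.81-fold, adjusted p = 8.86e-06), and was 0.82 higher with X-3 than with X-1 (adjusted p = 0.0124). Adh7, another such dehydrogenase, was −0.14 with X-1 (adjusted p = 0.508) and fell by 0.99 with X-3, and X-3 minus X-1 was −0.85 (adjusted p = 0.0182). Akr1b10, a reductase of retinal, fell by 0.85 and fell by 0.46. Rdh9 and Rdh11 were not called with either compound. Dhrs4, also a reductase of retinal, fell by 1.95 and fell by 1.83. Rdh13, a mitochondrial relative of the retinol dehydrogenases, rose by 0.66 and 1.18, although with spike-in scaling its X-1 value was −0.32.

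Among retinoic acid synthesis and breakdown genes, 5 of 9 were tested. With X-1, 4 rose and 1 fell, and with X-3, 3 rose and 1 fell (spike-in 1 and 1, 1 and 2, median scaling 3 and 1, 2 and 1), with medians of 0.89 and 0.62. Cyp26b1, which degrades retinoic acid and is itself induced by it, read −1.01 ± 0.07 in controls, 2.82 ± 0.20 with X-1 and 2.36 ± 0.46 with X-3. It rose by 3.84 with X-1 (14.3-fold, adjusted p = 1.4e-06) and by 3.37 with X-3 (10.4-fold, adjusted p = 3.67e-06), and the compounds differed by −0.47 (adjusted p = 0.205). Cyp26a1 was well above background on only 2 of 3 control arrays, and passed the filter through the treated groups. Its calls are not free of that filter, and they are among the rises counted here and in the response list. Its fitted differences were 1.13 and 1.00, both called, and with spike-in scaling 0.17 (adjusted p = 0.665) and 0.27 (adjusted p = 0.512), neither called. Aldh1a1, which makes retinoic acid from retinal, fell by 0.97 and fell by 1.07. Aldh1a7 rose by 0.89 with X-1 (adjusted p = 0.000675) and was 0.01 with X-3, and X-3 minus X-1 was −0.88 (adjusted p = 0.00858). With spike-in scaling Aldh1a7 was −0.13 and −0.79 against control, and the difference between the compounds was −0.66 and not called (adjusted p = 0.292). With normexp background correction that difference had an adjusted p of 0.0556.

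Receptor partners and co-factors were called in both directions. Of 14 tested (16 listed), 6 rose and 3 fell with X-1, and 6 rose and 2 fell with X-3 (spike-in 0 and 6, 0 and 3, median scaling 3 and 3, 2 and 2). The rises with both compounds include Ppard, which was well above background on only 1 of 3 control arrays. It passed the filter through the treated groups, so its calls are not free of that filter. Rxrb was −0.08 with X-1 (adjusted p = 0.601) and rose by 0.54 with X-3 (adjusted p = 0.00544), and the difference between the compounds was 0.62 (adjusted p = 0.0178). With spike-in scaling the X-3 value of Rxrb was −0.24, and with median scaling it was 0.33 (adjusted p = 0.189). The difference between the compounds was not called on either scale (adjusted p = 0.174 and 0.12). The coactivator Ncoa3 rose by 1.20 and 1.28, and the corepressor Nrip1 by 1.60 and 1.07. Ncoa1 fell by 0.86 and fell by 0.87. The corepressor Ncor1 and the Mediator subunit Med1 were not called at their brightest probes. Over the 7 Ncor1 probes, differences from control ran from −3.12 to 0.37 with X-1 and from −3.20 to 0.06 with X-3. Over the 3 Med1 probes they ran from −0.06 to 0.91 with X-1 and from −0.84 to 0.70 with X-3. Ncoa2 fell by 0.86 and fell by 0.80 at its brightest probe, but its other probes reached 1.42 and 1.64, and the mean of its probes was 0.31 and 0.53.

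Genes known to respond to retinoic acid moved in both directions. Of 18 tested (28 listed), 7 rose and 5 fell with each compound (spike-in 3 and 11, 4 and 7, median scaling 7 and 6, 6 and 5), with medians of 0.19 and 0.46. The rises include Cyp26a1, Cyp26b1 and Nrip1, which are also counted in lists above. Called lower with both compounds were Hoxa2 (−0.96 and −1.34), Tgm2 (−0.96 and −0.75) and Meis2 (−0.83 and −1.19). The Meis2 values are at its brightest probe, and another of its probes gave 0.28 with X-1. The homeobox genes Hoxa4 and Hoxa5 rose by 1.50 and 1.54 with X-1 and by 2.15 and 1.98 with X-3, and Hoxa4 was 0.65 higher with X-3 than with X-1 (adjusted p = 0.0262). Bhlhe40, a transcriptional repressor also known to respond to low oxygen, rose by 3.10 and 2.90. Tshz1 rose by 2.13 with X-1 and 0.77 with X-3, a difference between the compounds of −1.37 (adjusted p = 0.00704), and with spike-in scaling its X-3 value was −0.04. Rarres2, the gene of chemerin, fell by 0.44 with X-1 and was 0.18 with X-3, with a difference of 0.62 (adjusted p = 0.0262). Meis1 fell by 0.82 with X-3 and was −0.13 with X-1 (difference −0.69, adjusted p = 0.0359), but its other probe differed from control by 1.07 with X-1 and −0.24 with X-3.

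In the PPAR gamma target list, of which 8 of 15 were tested, 4 rose and 2 fell with X-1 and 3 rose and 2 fell with X-3 (spike-in 1 and 3, 1 and 4, median scaling 3 and 2, 3 and 2). Fabp4, a fatty acid carrier of adipocytes, fell by 2.84 with X-1 (7.14-fold, adjusted p = 3.68e-06) and fell by 2.48 with X-3 (5.59-fold, adjusted p = 1e-05). Angptl4, a secreted inhibitor of lipoprotein lipase that is also known to respond to low oxygen, rose by 2.09 and 1.71. Gk, a glycerol kinase, fell by 1.18 and fell by 1.34, and Slc27a1, a fatty acid transporter, was not called. Cebpa was 0.40 with X-1 (adjusted p = 0.132) and rose by 1.04 with X-3 (adjusted p = 0.00249).

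Several of the calls between the compounds did not hold when single arrays were left out or with other scaling. Over left-out arrays the highest adjusted p was 0.067 for Adh7, 0.101 for Hoxa4, 0.0726 for Rarres2, 0.108 for Meis1, 0.0721 for Rxrb and 0.0518 for Adh1. With median scaling it was 0.147 for Hoxa4, 0.175 for Rarres2, 0.148 for Meis1, 0.12 for Rxrb, 0.064 for Adh1 and 0.0896 for Adh7, none called, and spike-in scaling ended all 6 calls too. The response list went from 3 higher and 3 lower with X-3 than with X-1 to 0 and 1 with median scaling. Against control, over left-out arrays, Rdh13 with X-1 reached 0.0895 and Rarres2 with X-1 reached 0.0765. Akr1b10 with X-3 reached 0.071, Crebbp with X-3 0.0602 and Aldh8a1 with X-1 0.0694. Lipe reached 0.12 with X-1 and 0.105 with X-3.

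**Figure D4:**
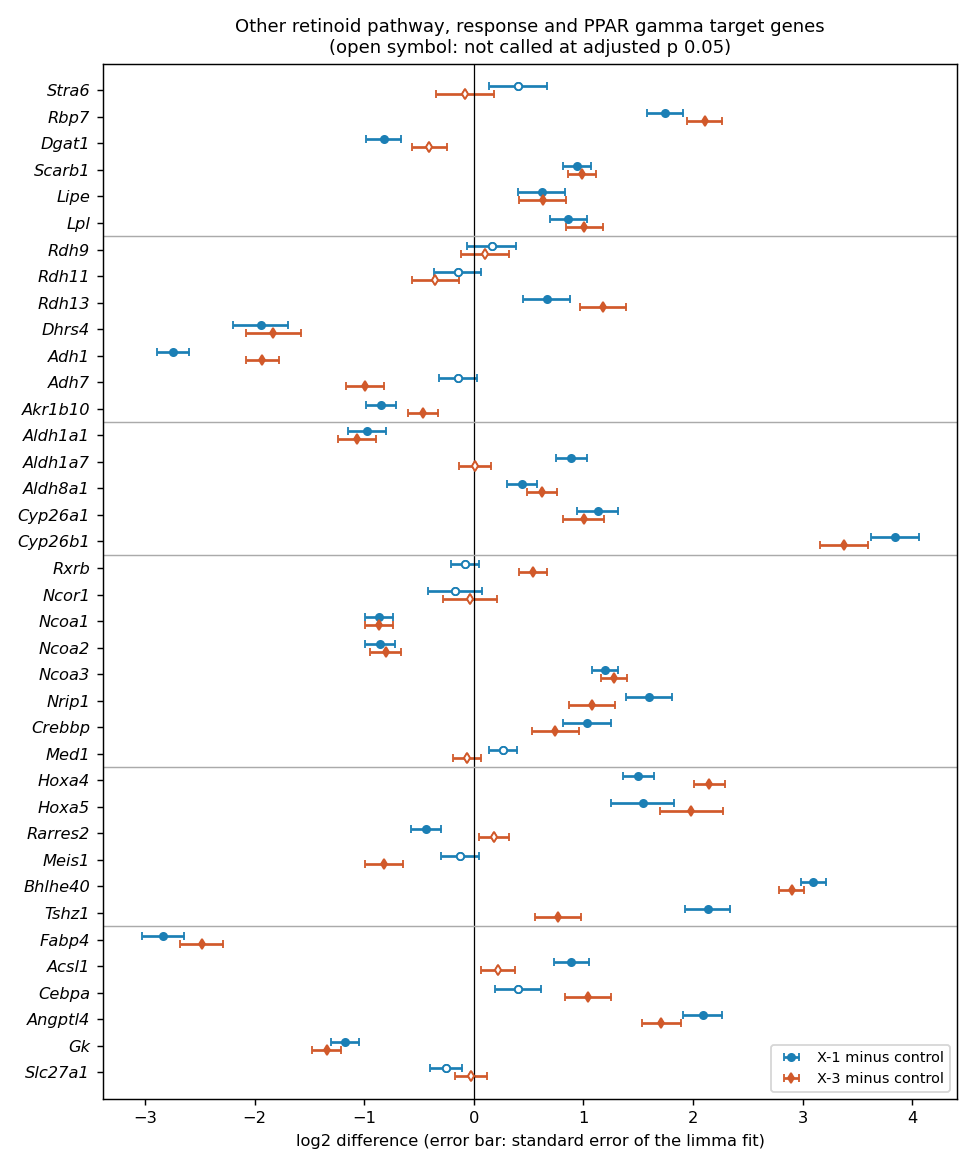
Log2 differences with X-1 and X-3 against control for the genes of the pathway lists that the naming rule picked. These were picked by call and size of difference and are not the whole lists. Open symbols mark genes that were not called at an adjusted p of 0.05. Cyp26b1 is the largest positive value, and Fabp4 and Adh1 lie furthest below 0.

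The genes whose levels followed Retsat most closely over the 9 arrays were Fbxo36 (Pearson r 0.988), S100a1 (0.983), Rabggta (0.983), Chmp2a (0.982) and 1700001O22Rik (0.978). These values describe 9 arrays in 3 groups and carry no test, and 121 genes had an r above 0.9. All 5 were called lower with X-1 against control, as were 28.3% of all genes. Of the 5, Fbxo36 and 1700001O22Rik were called higher with X-3 against control, by 0.30 and 0.73, as were 29.3% of all genes. The 5 were picked by their likeness to Retsat on these same arrays, so these directions follow from the choice and are no separate result.

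The start regions of the genes were searched for letters known from retinoid and low-oxygen responses, on both strands. Promoter windows of 300 bases (250 before and 50 after the start) were given by RefSeq on GRCm38.p6 for 7 of 9 genes, as 14 windows, and Rdh10 and Crabp2 had none there. The nuclear receptor motif AGGTCA was found in 2 of 14 windows, against 16.3% of 32851 windows of all genes, at a Rara start and at the Rarg start shown second. Direct repeats of AGGTCA with spacers of 1, 2 and 5 bases (AGGTCANAGGTCA, AGGTCANNAGGTCA and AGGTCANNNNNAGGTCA) were found in 0 of 14 windows, against 0.0396%, 0.00913% and 0.00913%. The core ACGTG of the low-oxygen response element was found in 4 of 14 windows, against 19.6%. Overlapping matches were kept, some windows of a gene overlap, and a match describes letters, not a binding site. Only exact repeats of AGGTCA were searched. With shares as low as those of the repeats, 0 of 14 windows cannot show that the members lack such sites. The 250 bases before the start of Retsat and of the starts of Rarg are shown in lower case, with AGGTCA and ACGTG, on either strand, in capitals.
Retsat promoter 1 (chr6:72598352-72598601, plus strand): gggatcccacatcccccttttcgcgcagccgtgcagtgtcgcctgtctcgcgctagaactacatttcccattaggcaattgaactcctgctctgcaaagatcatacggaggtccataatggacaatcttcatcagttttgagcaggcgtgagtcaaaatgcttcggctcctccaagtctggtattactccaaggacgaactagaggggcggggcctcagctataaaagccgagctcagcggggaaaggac
Rarg promoter 1 (chr15:102246501-102246750, minus strand): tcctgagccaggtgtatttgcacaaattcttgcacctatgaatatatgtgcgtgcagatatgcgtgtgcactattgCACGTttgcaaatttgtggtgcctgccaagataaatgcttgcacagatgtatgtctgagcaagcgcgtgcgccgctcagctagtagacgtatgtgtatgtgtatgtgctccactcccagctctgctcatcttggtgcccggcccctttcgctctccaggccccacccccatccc
Rarg promoter 2 (chr15:102257523-102257772, minus strand): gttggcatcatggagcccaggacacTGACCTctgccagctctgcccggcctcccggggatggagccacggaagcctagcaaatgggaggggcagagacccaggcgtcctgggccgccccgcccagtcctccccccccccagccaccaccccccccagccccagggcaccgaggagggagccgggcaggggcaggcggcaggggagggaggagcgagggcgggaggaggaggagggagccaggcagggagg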

How the data were processed

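Per the file headers, the deposited intensity values (processed signal) were read with Agilent Feature Extraction, version 10.5.1.1 for replicate 1 and 10.7.3.1 for replicates 2 and 3, with background subtracted and no scaling between arrays, while the submitters' processing notes name 9.1. The authors' deposited series table holds a score per probe, of 3.95 to 4.21 log2 units each, whose direction and centring were read from the values (median −0.12). The score was used only as an alternative. Spots of 1 probe were averaged in log2 without outlier marks, 75th percentiles subtracted, and genes represented by their brightest kept probe. Genes were named from RefSeq by accession (25263 probes), symbol (6233) or synonym (1603), and 8075 were unmatched. A single limma fit (3.58.1, R 4.3.3; lmFit and eBayes) to the 9 arrays gave two-sided p-values, with Benjamini-Hochberg adjustment over 16735 genes (25285 probes for single probes). The fit was tested on simulated data. P-values measure the spread between these arrays. Exact permutation tests were two-sided.

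The members and lists were chosen with earlier results of these data known. Named pathway genes were up to 4 called genes of largest difference per list and comparison, and up to 2 not called nearest 0. Ppard, Hoxa2, Tgm2 and Meis2 are named outside this rule. They are not in the plot of pathway genes or among the single-gene results recomputed under other settings. The remaining named genes are in the text or the plot of pathway genes, except 2 that are not reported here but are in the list counts. Normexp used the median signal intensity, and the mean signal was not used here. Same-numbered arrays shared a slide; correlations of their deviations were 0.52, 0.32 and 0.27 for X-1 and control, 0.24, 0.11 and 0.23 for X-3 and control, and −0.04, −0.18 and 0.16 for X-1 and X-3. They thus pair the arrays against control but not between the compounds.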

Additional observations from a re-analysis of the deposited data

Results flagged for a closer look

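Crabp2 was well above background on 2 of 3 X-3 arrays and on no control or X-1 array, although it had no usable level in the comparisons. The Rarb probe A_52_P495759 was well above background on 1 X-3 array and on no control or X-1 array. Neither signal was tested.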

How the results depend on the processing

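The 141 single-gene results were recomputed under up to 18 alternative settings (2523 values). Of these values 2310 kept their side of the threshold, 133 lost the call and 57 gained it. Another 23 changed sign where the main or the alternative fit gave a call. A change of sign with no call in either fit was counted among the 2310 and is not listed below. The cause of these changes was not tested. Normexp on the median signal and slides 2 and 3 alone were chosen after seeing the data. Members called with X-1 numbered 1 and with X-3 numbered 2 under spike-in scaling of slides 2 and 3, and 4 under every left-out array; between the compounds 2 were called with slides 2 and 3 alone, 1 without X-3 replicate 1, and 0 to 1 over all left-out arrays. Retsat was −0.98 and 0.34 with median scaling and −1.87, −0.37 and 1.50 with spike-in scaling (X-1, X-3 and their difference), and −0.89 to −0.70, 0.43 to 0.62 and 1.27 to 1.39 over left-out arrays.

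Under spike-in scaling the sign also changed for Dhrs3 (−0.18 and −0.25; second probe −0.15 with X-3), Rarg probe A_51_P372858 (−0.023), Lpl (−0.28 and −0.034), Lipe (−0.41 and −0.25), Stra6 (−0.86), Rdh13 (−0.32), Rdh9 (−0.91 and −0.93), Aldh1a7 (−0.13 and −0.79), Aldh8a1 (−0.56 and −0.10), Crebbp (−0.079), Rxrb (−0.24), Tshz1 (−0.042) and Acsl1 (−0.079 and −0.78). With the mean of a gene's probes Ncoa2 changed sign, to 0.31 and 0.53.

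Over all genes, 4719 rose and 4733 fell with X-1, 4900 and 4408 with X-3, and 1201 and 612 between the compounds. Median scaling gave 3127 higher with X-1, 3081 with X-3, and 317 and 143 between compounds. Spike-in scaling gave 1281 and 9710, 1547 and 8147, and 129 lower between compounds. Between compounds, normexp gave 663 higher, slides 2 and 3 alone 2991 and 3471, and no filter 423 and 155. Left-out arrays gave 3995 to 5569 and 4143 to 5358 (X-1), 4246 to 5433 and 3776 to 5088 (X-3), and 484 to 1757 and 142 to 1638 (compounds); without X-3 replicate 1 the last was 1638. With the replicate block the counts were 5087 and 4915, 5230 and 4588, and 1151 and 649. The number of arrays limits precision.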
